A study of Mus musculus with 6 samples.

Results

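Antibody variable segments are the short coding units that give each antibody its antigen-binding end. The 89 segments described here are the genes of the deposited table whose symbol begins with Ighv (heavy chain), Igkv (kappa light chain) or Iglv (lambda light chain) and whose raw read counts summed to 10 or more over the 6 libraries. They are 89 of 346 such genes in a table of 55291 genes: 44 of 183 Ighv, 43 of 160 Igkv and 2 of 3 Iglv. The counts that chose them are the same counts described below. Transcripts were sequenced from femoral marrow of mice aged 6 to 8 weeks, namely 3 wild types (WT 1, WT 2 and WT 3) and 3 P2rx7 knockout mice (KO A, KO B and KO C), with 1 library per mouse. P2rx7 encodes a purinergic receptor that opens as an ion channel when it binds extracellular ATP, and the study asked what its loss does to bone. Strain, sex, the kind of knockout allele and any shared litters are not given in the labels.

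A B cell builds its heavy chain gene by joining 1 variable, 1 diversity and 1 joining segment of chromosome 12, and its light chain gene by joining 1 variable and 1 joining segment of the kappa locus on chromosome 6 or the lambda locus on chromosome 16. Daughter cells keep the joined gene, so cells of 1 clone transcribe the same pair of segments. Plasma cells, the antibody-secreting cells that settle in marrow, carry very large amounts of antibody mRNA, while naive B cells carry far less.

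The sequences of the 3 segments that passed the genotype test given below are shown first, each beside its closest relative among the segments of its class, because reads of near-identical segments can be assigned to either. Each line holds the first 290 bases of the exon that encodes the variable domain, read 5′ to 3′ from GENCODE M21 on GRCm38, and capitals mark the bases that differ within a pair. The heavy chain pair is Ighv1-81 (chr12:115920294-115920583, minus strand) and Ighv1-85 (chr12:116000043-116000332, minus strand), with 22 differing bases.
Ighv1-81: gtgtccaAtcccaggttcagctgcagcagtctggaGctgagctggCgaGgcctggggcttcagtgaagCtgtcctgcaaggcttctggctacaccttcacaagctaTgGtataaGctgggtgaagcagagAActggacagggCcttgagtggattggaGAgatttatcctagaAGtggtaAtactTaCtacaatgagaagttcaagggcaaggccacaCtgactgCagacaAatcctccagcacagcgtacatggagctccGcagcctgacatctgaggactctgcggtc
Ighv1-85: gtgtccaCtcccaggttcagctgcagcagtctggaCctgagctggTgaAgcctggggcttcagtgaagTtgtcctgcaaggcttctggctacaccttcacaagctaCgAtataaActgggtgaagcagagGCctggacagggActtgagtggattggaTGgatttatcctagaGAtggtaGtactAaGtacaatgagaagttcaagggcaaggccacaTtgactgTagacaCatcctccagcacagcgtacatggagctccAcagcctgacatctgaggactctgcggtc
The kappa pair is Igkv10-96 (chr6:68631971-68632260, minus strand) and Igkv10-94 (chr6:68704516-68704805, minus strand), with 16 differing bases.
Igkv10-96: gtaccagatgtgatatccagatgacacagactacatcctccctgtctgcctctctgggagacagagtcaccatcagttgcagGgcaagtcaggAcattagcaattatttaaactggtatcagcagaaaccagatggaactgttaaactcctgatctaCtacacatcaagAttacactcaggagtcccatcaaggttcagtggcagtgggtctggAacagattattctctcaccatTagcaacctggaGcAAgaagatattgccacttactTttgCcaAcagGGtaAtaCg
Igkv10-94: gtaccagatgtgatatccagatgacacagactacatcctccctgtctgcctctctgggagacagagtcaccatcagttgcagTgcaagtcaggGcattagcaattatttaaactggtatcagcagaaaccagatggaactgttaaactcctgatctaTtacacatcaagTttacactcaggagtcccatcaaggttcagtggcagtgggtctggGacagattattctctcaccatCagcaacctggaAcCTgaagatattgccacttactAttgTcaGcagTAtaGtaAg
The lambda pair is Iglv1 (chr16:19085032-19085321, minus strand) and Iglv2 (chr16:19260416-19260705, minus strand), with 8 differing bases.
Iglv1: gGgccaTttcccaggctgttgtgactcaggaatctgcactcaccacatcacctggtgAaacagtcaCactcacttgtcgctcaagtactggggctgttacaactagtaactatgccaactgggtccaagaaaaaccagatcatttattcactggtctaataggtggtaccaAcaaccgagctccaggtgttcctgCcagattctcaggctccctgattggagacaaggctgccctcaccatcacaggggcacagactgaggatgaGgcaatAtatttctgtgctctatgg
Iglv2: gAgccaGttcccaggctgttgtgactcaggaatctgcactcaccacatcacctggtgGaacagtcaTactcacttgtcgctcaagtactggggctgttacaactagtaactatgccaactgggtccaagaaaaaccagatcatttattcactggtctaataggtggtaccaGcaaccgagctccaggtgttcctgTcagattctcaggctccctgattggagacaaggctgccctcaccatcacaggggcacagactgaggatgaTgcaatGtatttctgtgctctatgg
Over these 290 bases the pairs were 92.4%, 94.5% and 97.2% identical. All 6 of these segments are among the 89. Across the 89, identity of the exon to the closest relative ran from 77.9% to 98.1%, with a median of 95.3%, and 47 segments were at 95% or more. A stretch of 50 bases that also occurs in another segment covered a median of 23.5% of start positions per segment and at most 74.3%, in Igkv4-59. In 14 segments no such stretch was shared, and in 6 more than 50% were. Counts of single segments are therefore less certain than sums over a class.

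Depth was 18716704 to 23575652 counts per library, so 3 counts, the most that a count of 0 allows, equalled 0.129 to 0.159 CPM (read counts scaled to library size) in 1 library. P2rx7 itself had 1207, 1410 and 1453 counts in WT 1 to 3 and 876, 722 and 748 in KO A to C, so its transcript was lower but not absent in the knockouts. The libraries also fell into 2 sets by traces of other tissues. Gh, pituitary growth hormone, had 54, 82 and 75 counts in the wild types, 23 in KO A and 0 in KO B and KO C. Alb, liver albumin, had 46 and 36 counts in KO B and KO C and 0 in the other 4 libraries. Defining red cell genes of marrow were nearly absent, with Hba-a1 at 0 to 2 and Hbb-bs at 0 to 5 counts per library, while the stromal gene Col1a1 had 145175 to 246035. The labelled tissue was therefore not matched by its erythroid markers.

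Variable segments of all 3 chains were at higher levels in every knockout than in any wild type. In WT 1, WT 2 and WT 3 the 44 heavy chain segments held 26, 38 and 58 counts, and in KO A, KO B and KO C they held 457, 365 and 454. Scaled to library size, their summed level was 1.81 ± 0.620 CPM in wild types and 20.9 ± 1.72 CPM in knockouts (SD, n = 3), an 11.5-fold ratio. The 43 kappa segments held 20, 22 and 71 counts in wild types and 452, 427 and 520 in knockouts, or 1.67 ± 1.21 against 23.0 ± 2.90 CPM, a 13.8-fold ratio. The 2 lambda segments held 3, 13 and 3 counts against 123, 73 and 187, or 0.279 ± 0.241 against 6.26 ± 2.82 CPM, a 22.5-fold ratio. The groups did not overlap in any class, and the lowest knockout exceeded the highest wild type 8.07-fold in the sum of all 89 segments. WT 3 held the most heavy and kappa counts among the wild types. Without WT 3 the log2 ratio of the kappa sum was 4.57 in place of 3.79, and without WT 2 that of the lambda sum was 5.48 in place of 4.49. No test was made on these sums, because the segments were chosen with their values known. In bulk RNA, more cells of a type and more RNA per cell cannot be told apart.

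**Figure D1:**
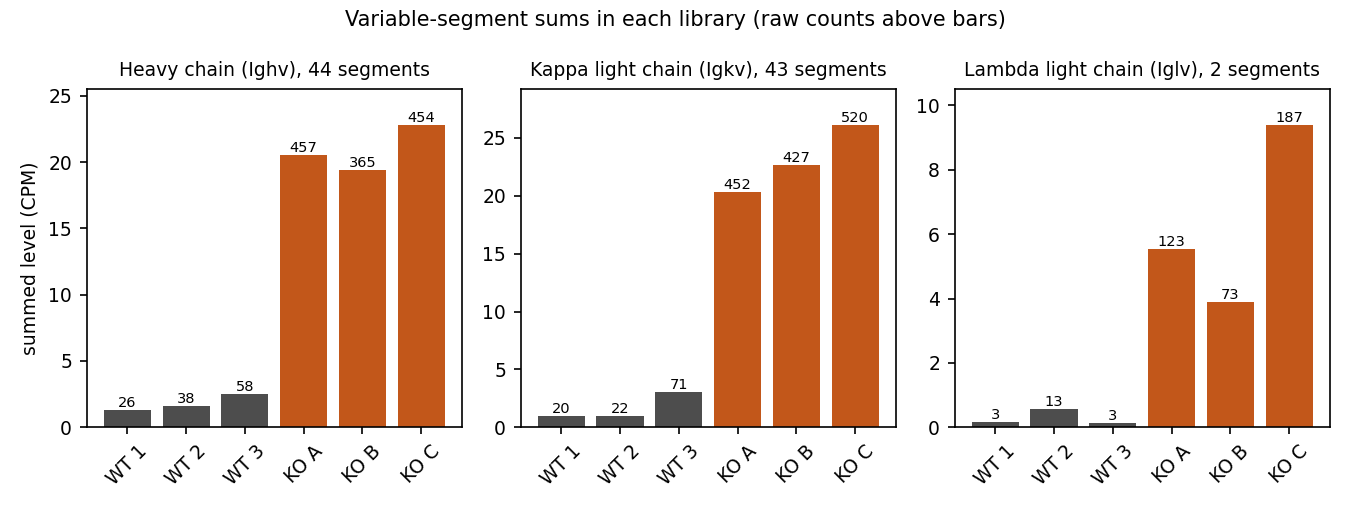
Bars give the summed level in CPM of heavy, kappa and lambda variable segments in each of the 6 libraries, with the raw counts above the bars; each panel has its own vertical axis, which starts at 0. All 3 knockouts stand above all 3 wild types in each panel, with 365 to 457 heavy chain counts in knockouts against 26 to 58 in wild types.

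KO A shared the Gh trace with the wild types and lacked the Alb trace, and its 1032 variable-segment counts lay between the 865 of KO B and the 1161 of KO C. The wild types held 49, 73 and 132. All wild types carried the Gh trace, and the part of the 2 sets in these sums was not tested. Genes of the same classes that fell under the threshold of 10 counts were also higher in knockouts for heavy chain and kappa. The 139 other Ighv genes held 5, 2 and 9 counts in wild types and 52, 52 and 63 in knockouts, an 11.4-fold ratio in CPM, and the 117 other Igkv genes held 3, 4 and 10 against 42, 28 and 49, a 7.75-fold ratio, against 13.8-fold in the chosen ones. Iglv3, the remaining lambda gene, had 2 counts, both in WT 2. T cell receptor variable segments chosen by the same threshold, 8 of 178, stood at 2.20 ± 0.755 CPM in wild types and 3.37 ± 0.128 CPM in knockouts (SD, n = 3), a 1.53-fold ratio, and there too each knockout lay above each wild type.

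Heavy and light chains were present in similar amounts. Heavy chain segments made up 53.1%, 52.1% and 43.9% of variable-segment counts in WT 1 to 3 and 44.3%, 42.2% and 39.1% in KO A to C. The 95% Wilson intervals were wide in wild types, 39.4% to 66.3% in WT 1, and narrower in knockouts, 36.3% to 41.9% in KO C. WT 3 lay below KO A, so the genotypes overlapped, and the means of 49.7% and 41.9% did not separate the groups. Segments differ little in counted length, from 347 to 425 bases, and the same shares taken from length-scaled FPKM sums averaged 50.5% and 42.6%. Over the 3 segments with 100 or more counts, Iglv1, Ighv1-81 and Ighv3-6, the order of the group means turned, with 21.1% in wild types and 39.1% in knockouts.

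Within the light chains, the lambda share varied from mouse to mouse more than by genotype. Lambda segments made up 13.04%, 37.1% and 4.05% of light chain variable counts in WT 1 to 3 and 21.4%, 14.6% and 26.4% in KO A to C, so the groups overlapped. Constant regions gave lower shares in the same order among the knockouts, with Iglc1 to Iglc4 at 13.6%, 7.11% and 16.01% of light chain constant counts. Among the wild types, too, WT 2 had the highest share by both measures, at 14.4% of constant counts against 6.56% in WT 1 and 5.15% in WT 3. The variable and constant ends of the lambda chain were counted as separate genes, so these are 2 readings of the same libraries.

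Of the 89 segments, 13 passed the filter on low counts and entered the edgeR quasi-likelihood test, and 3 of them were higher in knockouts at an adjusted p below 0.05. Over all 15478 genes tested, 0.0581% were called higher. No segment was called lower. All 13 had an unadjusted p below 0.05, and the median log2 fold change was 4.38 over these 13 against 0.0042 over all genes tested. Neither the 13 low unadjusted p-values nor that median is support for a rise, because most segments reached the filter only through their knockout counts. Two-sided tests were used throughout, and p-values were adjusted by Benjamini-Hochberg over all genes tested.

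Iglv1, the most used of the mouse lambda variable segments, had 3, 13 and 3 counts in WT 1 to 3 and 116, 72 and 181 in KO A to C. Every knockout had at least 72 counts, and WT 2 was the highest wild type. Per length it stood at 0.717 ± 0.624 FPKM in wild types and 15.4 ± 6.90 FPKM in knockouts (SD, n = 3). Its log2 fold change was 4.38 ± 0.52 (SE, edgeR adjusted p = 0.0446), and without WT 2 it was 5.38. Iglv2, which differs from it by the 8 bases shown above, had 0 counts in all wild types and 7, 1 and 6 in knockouts, at least 5.09-fold higher against the 3 counts that a group sum of 0 allows. It did not enter the test.

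Ighv1-81, a member of the large Ighv1 family, had 0, 0 and 2 counts in wild types and 56, 33 and 31 in knockouts. The knockouts differed by less than 2-fold among themselves, and both wild-type counts came from WT 3. Its log2 fold change was 5.77 ± 0.60 (SE, edgeR adjusted p = 0.0302), and the ratio was 65.4 (exact 95% binomial interval 17.7 to 546). Without WT 3 no wild-type count was left to form a ratio. Igkv10-96 had 0, 1 and 1 counts in wild types and 43, 23 and 16 in knockouts. KO A was the highest, and the groups were far apart. Its log2 fold change was 5.22 ± 0.65 (SE, edgeR adjusted p = 0.0490), and the ratio was 44.7 (interval 11.98 to 375).

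Single libraries changed these calls. Without WT 3 all 3 segments were called and Igkv1-110 with them, where 0.55% of all genes tested were called higher. Without WT 2, Ighv1-81 and Iglv1 were called, where 0.211% of all genes were. No segment was called without WT 1, KO A, KO B or KO C, among the 4 libraries with Gh counts, or with the Gh set as a term beside genotype. These 6 fits called almost no gene of any kind: 0.0189% of all genes tested were higher without WT 1, 0.0128% without KO A and 0% in the other 4. In the same 6 fits the log2 fold changes ran from 5.32 to 6.14 for Ighv1-81, from 4.77 to 5.76 for Igkv10-96 and from 3.97 to 4.62 for Iglv1, and the adjusted p-values from 0.0603 to 0.521. The calls also turned on the filter and the tool. With every gene that had a count, edgeR called 47 of 89 segments higher, where 1.71% of all genes were. DESeq2 called 28 of the 76 it gave an adjusted p, where 1.31% of all genes were. The genes behind the 1.71% include those under the count threshold that chose the 89 segments, so it is not a like base. That threshold was reached mostly through knockout counts, so neither the 47 nor the 28 is support for a rise.

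The other 10 tested segments had log2 fold changes of 1.98 to 5.09 and adjusted p-values of 0.0994 to 0.30, so none passed. Ighv3-6 had 0, 2 and 1 counts against 17, 26 and 61, and Igkv14-111 had 0, 2 and 1 against 61, 16 and 18. Igkv8-30 had 0, 0 and 4 against 18, 18 and 48, and Igkv1-117 had 2, 4 and 0 against 17, 63 and 11. In each of these 4 the knockouts were above the wild types, and 1 knockout held far more than the other two. Igkv1-110, a 96.8% identical relative of Igkv1-117, was more even, with 2, 0 and 4 counts against 31, 14 and 27. Igkv15-103 had the smallest fold change of the tested segments: 11 of its 12 wild-type counts were in WT 3, against 15, 22 and 7 in knockouts, so the groups overlapped.

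**Figure D2:**
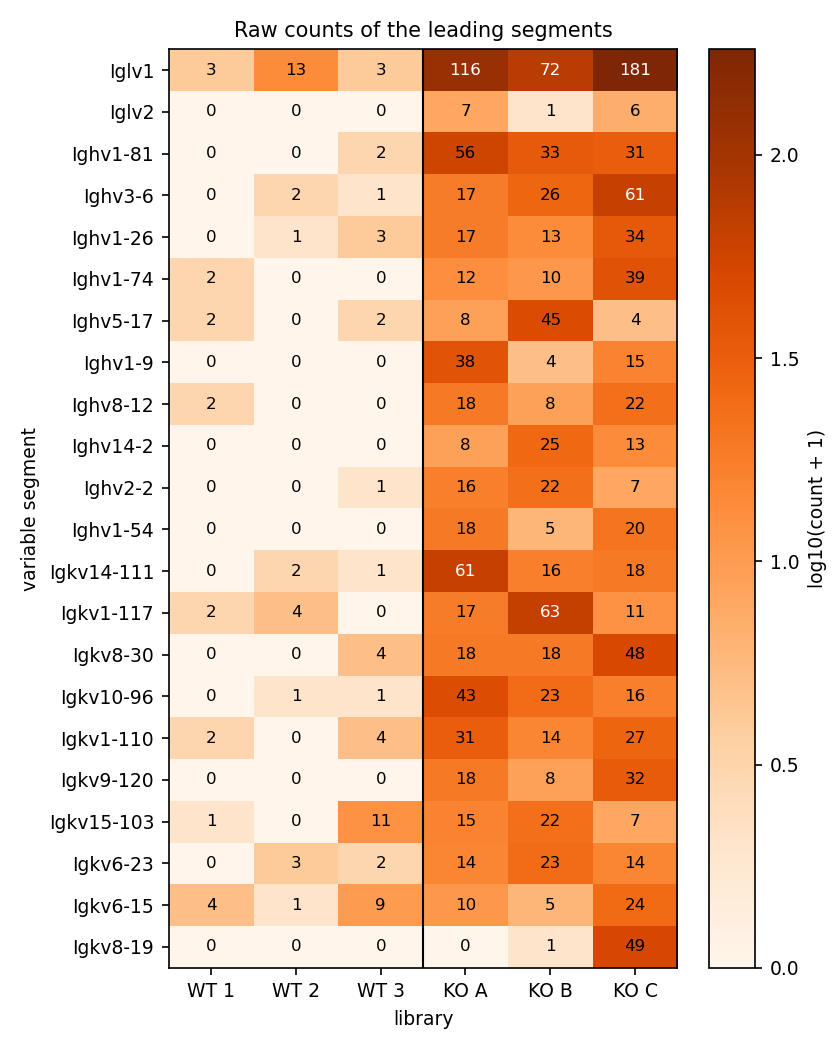
Raw counts of both lambda segments and of the 10 heavy chain and 10 kappa segments with the most counts, with 1 column per library and colour on a log10(count + 1) scale. Iglv1 reaches 181 counts in KO C, and Igkv8-19 has 49 counts in KO C, 1 in KO B and 0 elsewhere.

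Over all 89 segments, each knockout was above each wild type in 58, and each was below in 0. Among all genes with 10 or more counts, 10.5% had each knockout above each wild type. The highest of the 6 libraries was a knockout in every segment: KO A in 29, KO B in 25 and KO C in 35. The threshold on summed counts favours segments that are high somewhere, so this follows in part from how they were chosen. No count was seen in any wild type for 25 segments, and 1 to 3 counts were seen for 40. Among the 25, Igkv9-120 had 18, 8 and 32 counts in knockouts, at least 21.1-fold higher against the group floor of 3 counts, and Ighv1-9 had 38, 4 and 15, at least 20.7-fold higher. The 5 segments that only just reached the threshold, with 10 counts, were Igkv17-127, Igkv4-50, Igkv6-25, Ighv4-1 and Ighv1-47. With 9 counts, Ighv1-5, Ighv1-80, Igkv12-46, Igkv16-104, Igkv3-1 and Igkv5-43 lay just outside it.

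Ratios below 2-fold were found in 6 of the 89 segments. Ighv1-39, the most abundant heavy chain segment of WT 3, had 0, 4 and 13 counts in wild types against 4, 14 and 3 in knockouts, 1.35 times the wild-type level with an exact 95% binomial interval of 0.676 to 2.72. Ighv1-58, the most abundant one of WT 1, had 7, 3 and 3 counts against 11, 6 and 4, a ratio of 1.76 (interval 0.841 to 3.83). Ighv7-1 had 3, 3 and 4 against 11, 0 and 7, a ratio of 1.96. The other 3 were Ighv1-42 with a ratio of 1.45 and Ighv1-69 and Igkv4-72, both with 1.63. Wild-type and knockout values of all 6 overlapped, and their intervals include equal levels.

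The leading segments differed from mouse to mouse. Iglv1 led all segments in each knockout, with 11.2%, 8.32% and 15.6% of variable-segment counts in KO A, KO B and KO C, and in WT 2, with 17.8%. Apart from it, no 2 knockouts shared a leading segment. The leading heavy chain segment was Ighv1-81 in KO A (12.3% of heavy chain segment counts), Ighv5-17 in KO B (12.3%) and Ighv3-6 in KO C (13.4%). The leading kappa segment was Igkv14-111 in KO A (13.5% of kappa segment counts), Igkv1-117 in KO B (14.8%) and Igkv8-19 in KO C (9.42%). Heavy chain and kappa leaders of the wild types had far fewer counts. They were Ighv1-58 and Igkv6-15 in WT 1, and Ighv1-53 and a tie of Igkv1-117 and Igkv4-72 in WT 2. In WT 3 they were Ighv1-39 and Igkv15-103. Of these, only Igkv1-117 also led its class in a knockout, KO B. The leading wild-type segments held 4 to 13 counts each.

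Several segments came almost wholly from 1 mouse. In 12 segments, 5 Ighv and 7 Igkv, at least 80% of the summed CPM lay in 1 library, where 0.257% of all genes with 10 to 388 counts did. The library was KO C in 6, KO B in 4 and KO A in 2. Igkv8-19 had 49 of its 50 counts in KO C, Ighv3-4 had all 36 of its counts in KO C, and Ighv1-63 had all 15 in KO B. Ighv1-31 had 28 of 31 counts in KO A, and Igkv4-57-1 had 26 of 28 in KO B. By contrast, Igkv4-91 had 8, 6 and 7 counts in the knockouts, and Igkv1-135 had 6, 5 and 6. These examples were picked after their values were seen, apart from Igkv8-19. Segments used by 1 mouse and segments used evenly by all 3 thus stood side by side.

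The spread of single segments among knockouts was larger than counting error. A dispersion index, the chi-square of the 3 knockout counts against equal CPM divided by its degrees of freedom, is near 1 when counting error is all there is. Its median over the 89 segments was 5.34, with a range of 0.0266 to 48.5, and over 9194 other genes with 6 to 400 knockout counts it was 0.916. In 56 of the 89 segments the index exceeded the 90th percentile of other genes in that range, 3.38. The highest was that of Igkv8-19, at 48.5, followed by Ighv3-4 at 37.1 and Igkv1-117 at 31.6. The index was 2.76 for the heavy chain sum, 7.64 for the kappa sum, 24.9 for the lambda sum and 19.4 for the sum of all 89. The kappa, lambda and total sums, whose counts are larger than those of single segments, thus also spread beyond counting error. The heavy chain index was nearer to 1, and whether it exceeded counting error was not tested. The highest knockout was 1.17-fold the lowest for the heavy chain sum, 1.28-fold for kappa and 2.42-fold for lambda. The wild types differed by 1.92-fold, 3.25-fold and 4.31-fold. In 71 of the 89 segments each knockout had counts, so the knockouts differed in the proportions of segments that most of them shared.

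**Figure D3:**
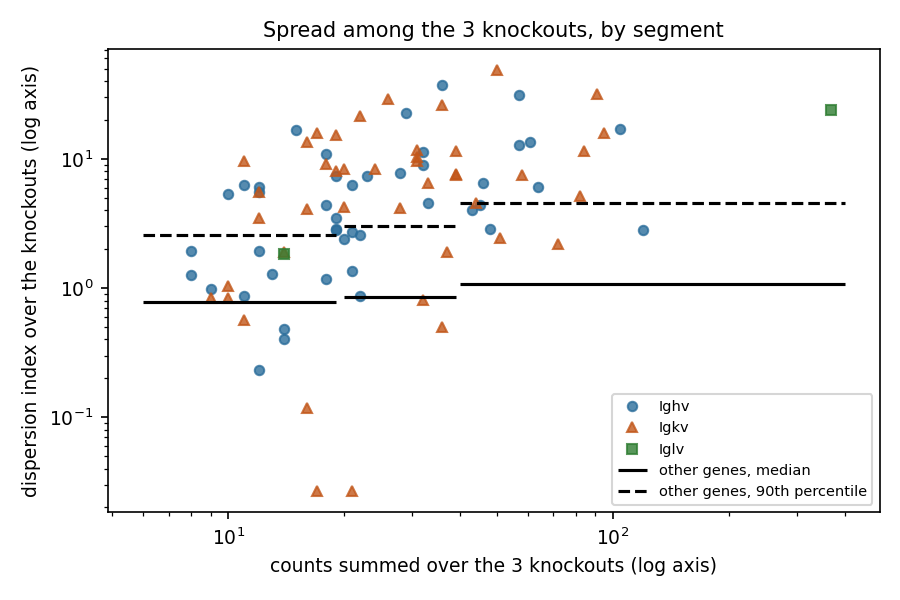
Each point is 1 of the 89 segments, placed by its counts summed over the 3 knockouts and by its dispersion index, both on log axes, with lines for the median and 90th percentile of other genes in 3 ranges of counts. Most points lie above the solid line of other genes' medians, and 56 of 89 exceed 3.38, the 90th percentile over the whole range.

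Counts of the 89 segments were only weakly alike between knockouts. Spearman's rho was 0.16 for KO A with KO B, 0.25 for KO A with KO C and 0.10 for KO B with KO C. These values are across segments, which are not independent replicates, so no p is given. The share of segment composition that 2 knockouts had in common, the sum over segments of the smaller of their 2 percentages, was 52.1% to 58.1%. Pairs of wild types had 21.2% to 36.7% in common, on 49 to 132 counts each, which is a depth at which composition is imprecise. KO A and KO B come from different sets by the Gh and Alb traces, and KO B and KO C come from the same set. The composition of KO B was no nearer to that of KO C (52.1%) than to that of KO A (55.0%).

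**Figure D4:**
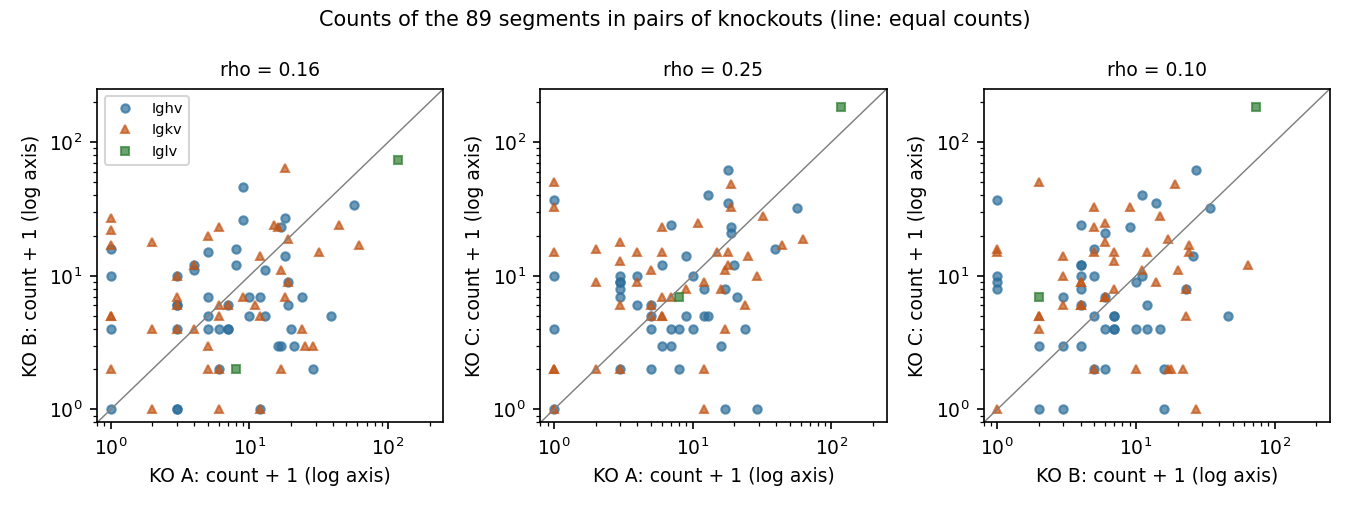
Each panel plots the counts of the 89 segments in 1 knockout against those in another, as count + 1 on log axes, with a line of equal counts and separate symbols for heavy, kappa and lambda segments. Points scatter widely on both sides of the line, with rho from 0.10 to 0.25, and Iglv1 sits at the top right of each panel.

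Among the 89 segments, knockout libraries also showed more different ones. Counts were seen for 24, 28 and 48 of the 89 segments in WT 1 to 3 and for 79, 82 and 84 in KO A to C. The threshold that chose the 89 was reached mostly through knockout counts, so this difference follows in part from the choice. The measures below also cover the 89 alone and leave out genes under the threshold. The effective number of segments, the exponential of the Shannon entropy, which counts segments weighted by how evenly they are used, was 25.3 ± 8.82 in wild types and 48.1 ± 2.66 in knockouts (SD, n = 3). The gap was smaller at a common depth. At 49 variable-segment counts per library, the number in WT 1, the expected number of segments seen was 24, 23.3 and 29.3 in wild types and 29.8, 30.3 and 29.1 in knockouts. At this common depth WT 3 lay above KO C, so the groups overlapped. The 5 most abundant segments together held 27.6% to 32.6% of variable-segment counts in the knockouts and 33.3% to 45.2% in the wild types. These shares were not taken at the common depth, and a share of leading segments runs higher where counts are few.

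By family, the Ighv1 segments, the largest mouse heavy chain family, made up 53.6% of heavy chain counts in the pooled knockouts and 63.9% in the pooled wild types, with 24 of the 44 heavy chain segments. The Ighv3 family had the widest range of shares among the knockouts in percentage points of heavy chain counts. Its 2 segments, Ighv3-6 and Ighv3-4, held 21.4% of heavy chain counts in KO C and 3.72% in the lowest knockout, and 2.46% in the pooled wild types. The Ighv7 segments held 10.7% of heavy chain counts in wild types, 13 counts in all, and 2.35% in knockouts, 30 counts in all. Among kappa families, Igkv8 held 15.4% of kappa counts in knockouts, between 10.5% and 22.9% in single mice, and 6.19% in wild types. Igkv4, with 8 segments, held 4.87% to 20.8% in single knockouts. Wild-type percentages rest on 122 heavy and 113 kappa counts. No family share was tested.

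Segments were used along the whole length of both large loci. Heavy chain segments lie 153 to 2589 kb from the mu constant gene Ighm (chr12:113418558-113422730, minus strand, GRCm38). When all 183 Ighv genes were divided into 3 parts of 61 by distance, the nearest, middle and farthest parts held 38.3%, 21.8% and 39.9% of knockout heavy chain segment counts, and 30.4%, 30.4% and 39.1% of the 138 wild-type counts. Kappa segments lie 22.8 to 3171 kb from Igkc (chr6:70726435-70726966, plus strand), and the 3 parts held 43.4%, 12.6% and 44.0% of knockout counts, with 19, 8 and 16 of the chosen segments. In both loci the middle part held the fewest knockout counts and also the fewest chosen segments, which for heavy chain numbered 17, 10 and 17. Kappa segments lie in both orientations, and those on the plus strand, the strand of Igkc, held 44.3% of knockout kappa segment counts and 35.4% of wild-type ones. All 44 heavy chain segments lie on the minus strand, like Ighm.

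**Figure D5:**
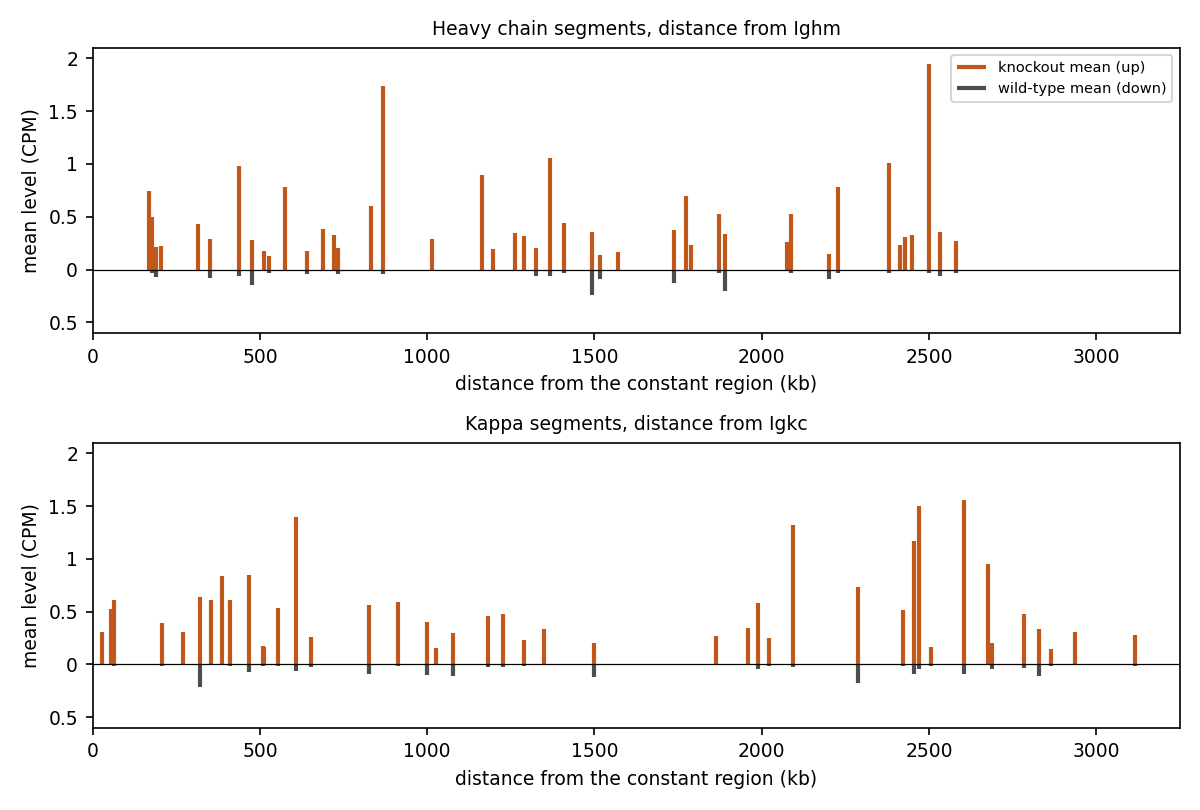
Vertical lines give the mean level in CPM of each heavy chain segment (top) and each kappa segment (bottom) by its distance in kb from the constant region, with knockouts drawn upwards and wild types downwards from 0. Knockout lines occur along both loci, and 2 heavy chain segments, Ighv3-6 and Ighv1-81, stand highest at 1.74 and 1.94 CPM.

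No chosen segment is annotated as a pseudogene in GENCODE M21, while 129 of the 346 variable genes in the table are. Most of the table's variable genes had few or no counts: 168 had 0 counts in all libraries and 89 had 1 to 9.

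The other ends of the antibody chains had the same direction. Of 14 constant region and joining chain genes, 9 were tested and 4 were higher in knockouts (edgeR), 0 lower, where 0.0581% of all genes were called higher. The 4 were Igha and Igkc, the IgA heavy chain and kappa constant regions, Iglc1, a lambda constant region, and Jchain, which links IgA and IgM into polymers. The median log2 fold change over the 9 was 3.75. Some of the 9, such as Ighg3, reached the filter only through knockout counts, so that median is not support for a rise. The summed level of the 14 genes was 15.2 to 49.7 CPM in wild types and 198.7 to 258.8 CPM in knockouts. Of the heavy chain constant genes that did not pass, Ighg1 and Ighg3 were spread unevenly over the knockouts. Ighg1 had 10, 0 and 6 counts in wild types and 97, 73 and 303 in knockouts, and Ighg3 had 0 in all wild types and 29, 111 and 11 in knockouts. Ighg2b had 0, 10 and 11 counts against 99, 65 and 101, and Ighg2c had 0, 11 and 19 against 166, 94 and 100. Both were more even among the knockouts, at 4.32 ± 0.81 and 5.83 ± 1.42 CPM (SD, n = 3). Among these IgG genes KO C was highest for Ighg1 and Ighg2b, KO B for Ighg3 and KO A for Ighg2c. Ighm, the IgM constant region, had 134, 125 and 516 counts against 432, 731 and 839, so WT 3 lay above KO A. Iglc2 had 0 counts in wild types and 8, 7 and 17 in knockouts, and Iglc3 had 2, 0 and 1 against 5, 1 and 44. Ighd and Ighe had at most 6 and 1 counts per library, and Iglc4 had 0.

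The class of heavy chain differed as well. Igha made up 38.8%, 51.1% and 37.4% of heavy chain constant counts in WT 1 to 3 and 72.1%, 62.3% and 60.5% in KO A to C. Ighm made up 56.5%, 41.0% and 58.2% in wild types and 14.6%, 25.5% and 24.4% in knockouts. The groups did not overlap for either share, and neither was tested. Which variable segment was joined to which constant gene cannot be read from counts per gene.

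Relative to the constant regions, the chosen kappa and heavy chain segments stood higher in each knockout than in each wild type. Per length, the kappa segments had 0.508, 0.402 and 0.467 of the FPKM of Igkc in WT 1 to 3 and 0.609, 0.564 and 0.606 in KO A to C. The heavy chain segments had 0.648, 0.770 and 0.383 of the summed FPKM of the heavy chain constant genes in wild types and 1.01, 0.819 and 0.863 in knockouts. These ratios were not tested, and wild-type ones rest on 20 to 71 kappa and 26 to 58 heavy chain segment counts. The segments were chosen by a threshold reached mostly through knockout counts, and the constant genes were not, which lowers the wild-type ratios. Kappa genes under the threshold held 0.419 FPKM beside 2.71 in the chosen ones in WT 1, and 4.07 beside 60.6 in KO B. For lambda the ratios overlapped, at 0.869, 1.16 and 0.290 against 0.864, 1.04 and 0.939. Joining segments of the heavy chain had 3, 1 and 15 counts in wild types and 26, 14 and 19 in knockouts, those of kappa had 3 counts in all, and the 20 diversity segments of the table had 0.

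No gene of the recombination, class switching, octamer factor, B cell or plasma cell lists passed the test, in which 0.0581% of all genes were called higher. Of 15 genes of V(D)J recombination, the joining reaction, 12 were tested and 0 passed in either direction, with a median log2 fold change of 0.042. The recombinase genes Rag1 and Rag2 had at most 1 count per library. Dntt, which adds bases at the joints, had 0, 1 and 16 counts in wild types and 1, 12 and 6 in knockouts, with the most in WT 3. Of the 8 genes of hypermutation and class switching, 7 were tested and 0 passed. For the B cell precursor list 0 of 5 tested genes passed, for the mature B cell list 0 of 6, for the plasma cell list, taken without antibody genes, 0 of 12, for the octamer factor list 0 of 2 and for the T cell list 0 of 2.

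Several defining markers of B lineage cells were close to 0 in both genotypes. Ms4a1, which encodes CD20, had 0, 0 and 1 counts in wild types and 3, 0 and 2 in knockouts, and Cd79a, a signalling chain of the B cell receptor, had 2, 1 and 1 against 4, 3 and 12. Other genes of the B cell lists were not near 0. Cd79b had 12 to 21 counts per library, Cd22 had 72 to 134 and Blnk had 451 to 703, with no call. The plasma cell genes Mzb1 and Tnfrsf17 had at most 2 counts per library. Pou2af1, a coactivator of octamer factors at antibody promoters, had 1, 0 and 3 counts against 10, 5 and 10, with no overlap and too few counts for the test. Sdc1 and Xbp1, also used as plasma cell markers, had 3014 to 4205 and 3839 to 4591 counts per library, with no call. Slamf7, a surface receptor of plasma cells and other immune cells, stood at 28.8 ± 0.228 CPM in wild types and 38.9 ± 2.56 CPM in knockouts (SD, n = 3), with no overlap and an edgeR adjusted p of 0.0709. The summed level of the whole plasma cell list, made up largely of the widely expressed genes Txndc5, Edem1, Xbp1 and Sdc1, was 1103 to 1118 CPM in wild types and 1101 to 1114 CPM in knockouts, that of the precursor list 154 to 190 and 201 to 217 CPM, and that of the mature B cell list 84.3 to 95.6 and 105 to 118 CPM. The summed levels of the last 2 lists did not overlap between genotypes, and their highest genes, Ebf1 and Cd37, are also expressed outside the B lineage. Cd37 had each knockout above each wild type, at 79.9 to 88.2 CPM against 59.9 to 68.2 CPM, without passing the test. Each knockout was above each wild type in 10.5% of all genes with 10 or more counts. The part of cell numbers in the antibody difference was not tested.

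No gene passed in the remaining cell type lists, and some of their genes had non-overlapping groups. Among all genes with 10 or more counts, 10.5% had each knockout above each wild type. The neutrophil list, 0 of 7 called, summed to 103 to 415 CPM in wild types and 85.3 to 507 CPM in knockouts. Its genes did not move together: Ngp, a granule gene of later precursors, stood at 85.7 ± 42.7 CPM in wild types and 49.8 ± 32.3 CPM in knockouts, and Mpo, a granule gene of early ones, at 55.6 ± 52.5 and 183 ± 119 CPM (SD, n = 3), with overlap in both. The stromal list, 0 of 5 called and mostly Col1a1 and Col1a2 by level, summed to 17624 to 21231 CPM in wild types and 19127 to 20310 CPM in knockouts, and the median of its log2 fold changes was 0.72. Within it Cxcl12, a chemokine that holds plasma cells and other blood cells in marrow, had 30969 to 73455 counts in wild types and 89416 to 93735 in knockouts, without passing the test. The leptin receptor gene Lepr, at 3.47 to 14.3 against 20.6 to 31.3 CPM, and the stem cell factor gene Kitl, at 109.9 to 248 against 297 to 347 CPM, likewise did not overlap and did not pass. The pituitary list, 0 of 3 called, summed to 5.76 to 6.94 CPM in wild types and 0.0502 to 2.38 CPM in knockouts, and of the liver list, at 0.301 to 0.343 against 0.270 to 3.72 CPM, no gene was tested. The part of any of these in the variable-segment counts was not tested.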

How the data were processed

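The labels' protocols give a Qiagen RNeasy kit for the RNA and a SMARTer mRNA kit for libraries from 1.3 µg. The submitters' processing notes name GRCm38 and mm10. An aligner, counter, annotation and strand setting were not given in the sources used here. Raw read counts per gene and FPKM values were deposited by the authors. The deposited FPKM equal those counts over gene length and a scaled library total (relative tolerance 1e-06).

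Groups came from the genotype labels. Members and gene lists were chosen with earlier results of these data known. Counts were tested with edgeR 4.0.16 in R 4.3.3: filterByExpr (15478 genes kept), TMM scaling, glmQLFit and glmQLFTest on genotype, adjusted p threshold 0.05. CPM use TMM-scaled library sizes. Alternatives used DESeq2 1.42.0 and limma 3.58.1 on log2(FPKM + 1). The test was checked on simulated counts. Intervals and floors cover counting error only, as no molecular identifiers are described, and p-values measure the spread between 3 mice per group. Positions of 344 of the 346 variable genes matched GENCODE M21. Named by rule were both Iglv members, called members, the 10 Ighv and 10 Igkv with most counts, each library's leading segments, members at and genes just under the threshold, antibody constant genes, and up to 4 genes of each other list. Any other segment or marker gene named was picked with its values in view. Values of 2 genes of the lists are not reported here.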

Additional observations from a re-analysis of the deposited data

How the results depend on the processing

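The 3 segments called higher by edgeR with the filter became 47 without the filter and 28 with DESeq2. These fits called 0.0581%, 1.71% and 1.31% of all genes higher. The threshold that chose the segments was reached mostly through knockout counts, so neither the 47 nor the 28 is support for a rise. The number stayed at 3 with RLE scaling, where 9 of 15478 genes were called higher, and with limma, where 8 of 15478 were. Limma called Igkv19-93 in place of Igkv10-96. The number was 0 to 4 with each library left out in turn, 0 in the 4 libraries with Gh counts and 0 with the Gh set as a term. Without KO B, without KO C and in both Gh fits edgeR called 0 genes of any kind, with 1468, 1772, 668 and 894 at an unadjusted p below 0.05. No segment was called lower in any of these fits. The log2 ratio of the heavy chain sum was 5.68 over members with 100 or more counts. Leaving out each library gave 3.34 to 3.83 for heavy chain, 3.50 to 4.57 for kappa and 4.08 to 5.48 for lambda sums. Over members with 100 or more counts the heavy chain share was 21.1% in wild types and 39.1% in knockouts, which turns the order of the group means, as only 3 segments then remain and no kappa segment is among them. The knockouts' effective number of segments was 29.8 by inverse Simpson and 29.7 as the number expected at the common depth. No paired analysis was possible because the labels number the wild types and letter the knockouts. Wild-type values rest on 49 to 132 variable-segment counts per library, which limits every share and single-segment ratio.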
